A study of Mus musculus with 6 samples.

Results

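Cholesterol is made in the endoplasmic reticulum from acetyl units by a long chain of enzymes, taken up in lipoproteins and exported by ABC transporters. When sterol is scarce the carrier protein Scap brings the transcription factor SREBP-2 (gene Srebf2) to the Golgi, where proteases release it to switch on the synthesis genes, and the Insig proteins hold Scap back when sterol is plentiful. Excess sterol also activates the nuclear receptor LXR, which in turn switches on exporters such as Abca1. Dividing and activated T cells draw on this synthesis for their membranes.

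The values of 30 genes of cholesterol synthesis, uptake and efflux were taken from RNA sequencing of regulatory T cells (Treg cells, CD4+ lymphocytes that carry the transcription factor Foxp3 and restrain immune responses). The 30 were listed by symbol, with earlier results of these data known, and are 30 of 24453 symbols of the deposited table. They are 18 enzymes of synthesis (Acat2, Hmgcs1, Mvk, Pmvk, Mvd, Idi1, Fdps, Fdft1, Sqle, Lss, Cyp51, Tm7sf2, Msmo1, Nsdhl, Hsd17b7, Ebp, Sc5d and Dhcr7), 5 genes of the SREBP pathway (Srebf2, Srebf1, Scap, Insig1 and Insig2), 3 genes of efflux and of lipoprotein receptor control (Abca1, Abcg1 and Mylip) and 4 of transport and storage (Stard4, Npc1, Npc2 and Soat1). Every one of the 30 was found, and 30 passed the filter on low values, a mean of at least 1 RPKM over the 6 libraries.

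There were 3 libraries of the miR-27 Tg genotype and 3 of the control, whose genotype label reads WT Tg and which is called WT here. Both came from healthy female C57BL/6 mice of unstated age, as cells sorted for CD4 and Foxp3. The series text describes miR-27a overexpression confined to Treg cells, and its title names the mice Foxp3cre het. Foxp3 is X-linked, so in a heterozygous female a part of the Treg cells uses the other allele. The labels do not say whether the sort selected the cells with Cre, whether the control mice carried Cre, or whether each library came from a mouse of its own. The p-values therefore cover only variation from library to library, part of which may be technical.

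Depth was 34400000 to 38100000 counted reads in miR-27 Tg libraries and 37700000 to 42100000 in WT libraries. The hairpin Mir27a had 2206 to 2921 reads in miR-27 Tg libraries and 8 to 13 in WT libraries, so each library matched its label. Foxp3 stood at 774 to 955 RPKM in miR-27 Tg libraries and at 662 to 830 RPKM in WT libraries. The 9 markers of T and Treg cells found in the table (of 10 listed) summed to 12441 to 12888 RPKM in miR-27 Tg libraries. In WT libraries they summed to 13459 to 14351 RPKM, without overlap, but abundant markers weigh most in such a sum. By log2 fold change 4 of the 9 were above 0 and 5 below (44.4% above, against 47.1% of all genes tested), with a median of -0.04. By limma 0 of the 9 passed, where 0.374% of all genes tested were higher and 0.653% lower. At an unadjusted p under 0.05 by limma 0 were higher and 3 lower, against 4.59% and 8.43% of all genes. Ctla4, an inhibitory receptor named after its values were seen, was the most abundant of the 9 by mean. It had 2107, 2322 and 2575 RPKM in miR-27 Tg libraries, against 3771, 3413 and 3125 RPKM in WT libraries (log2 fold change -0.56, adjusted p = 0.0868 by limma). Markers of B cells summed to 105 to 158 RPKM in miR-27 Tg libraries and 138 to 167 RPKM in WT libraries, those of CD8 T and NK cells to 161 to 269 RPKM in miR-27 Tg and 181 to 239 RPKM in WT, and those of erythroid cells to 5.41 to 32.8 RPKM in miR-27 Tg and 11.5 to 38.6 RPKM in WT. Of these 3 lists, with 7, 6 and 4 genes tested, 1 gene passed, Nkg7, which fell by 0.93 on the log2 scale (adjusted p = 0.0257 by limma). At an unadjusted p under 0.05 by limma, 1 B cell gene was higher and 0 lower. By the same measure 1 gene of CD8 T and NK cells was higher and 2 lower, and 0 erythroid genes were either. The shares of all genes given above apply here too. In these bulk samples fewer cells of a type and less RNA per cell cannot be told apart.

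MiR-27 is a small RNA that represses messenger RNAs with a match to its seed, bases 2 to 8. The mature sequences of both family members are shown because the match searched below is read from them. They are credited to RefSeq (GRCm38.p6, chr8:84208727-84208747 and chr13:63300760-63300780, both on the plus strand), with the shared seed in capitals.
mmu-miR-27a-3p: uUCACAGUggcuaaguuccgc
mmu-miR-27b-3p: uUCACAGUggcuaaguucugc

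For each gene the longest annotated protein-coding transcript with a 3′ UTR was taken (GENCODE M21, GRCm38), and that 3′ UTR was searched. It need not be the longest 3′ UTR of the gene, and in Fdps it had 55 bases. Of the 30 genes 4 held the match ACTGTGA there, which is 13.3%, against 16.5% of 11817 tested genes with a 3′ UTR. Each of these held 1 match: Abca1, Npc2, Sc5d and Npc1. The sites of 3 of them are printed 5′ to 3′ with the match in capitals, because the values of these genes run in different directions below. They lie on the minus strand at chr4:53031478-53031484 (base 2459 of 3156 of the 3′ UTR of Abca1), chr12:84756760-84756766 (base 360 of 2564 in Npc2) and chr9:42252882-42252888 (base 2454 of 3747 in Sc5d). The site in Sc5d lies beyond the end of the deposited transcript, so reads there were not counted. A match is a description of these letters, not evidence of binding.
Abca1: aaaacttactaACTGTGAatatgagaaag
Npc2: gctatggatccACTGTGAaggatggcttc
Sc5d: agacactgatcACTGTGAattatcttgaa

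SREBP proteins bind the sterol regulatory element, usually beside a CCAAT box bound by the factor NF-Y. The promoter windows of RefSeq (GRCm38.p6, 250 bases before to 50 after the start of a gene) held 24 of the 30 genes. Sqle, Fdps, Fdft1, Stard4, Abcg1 and Npc1 had no window and were not searched. The 24 were searched on both strands for TCACNCCAC and for CCAAT, letters that do not overlap each other in these matches. The element TCACNCCAC was found in 1 of the 24, Hmgcs1, which is 4.2%, against 1.36% of 9971 tested genes with a promoter window. CCAAT was found in 21 of the 24, which is 87.5%, against 42.51% of tested genes. The 3 genes without it were Acat2, Scap and Abca1. No match says only that these letters are not in the window.

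The 250 bases upstream of Hmgcs1 are shown because they hold both motifs (chr13:119690101-119690350, plus strand). The capitals mark, in order, a CCAAT box read on the other strand (ATTGG) at -237 and at -176, the sterol regulatory element at -137 and a further ATTGG at -45, counted in bases from the start of the gene.
Hmgcs1: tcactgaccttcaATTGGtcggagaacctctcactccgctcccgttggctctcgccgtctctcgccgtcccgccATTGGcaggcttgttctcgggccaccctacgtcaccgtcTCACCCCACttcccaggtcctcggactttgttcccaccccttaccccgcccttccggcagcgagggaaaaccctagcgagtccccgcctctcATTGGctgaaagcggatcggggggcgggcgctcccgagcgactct

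Windows of 30 bases around the CCAAT box (capitals, on either strand) are printed for 5 of the other genes whose miR-27 Tg libraries all lay above the WT libraries. Each holds 1 such box or more, of which 1 is shown. They lie at chr5:114444207-114444236 for Mvk, chr13:8885549-8885578 for Idi1, chr10:76531531-76531560 for Lss, chr5:4104709-4104738 for Cyp51 (minus strand) and chr5:28071184-28071213 for Insig1. The box begins at -50 in Mvk, -45 in Idi1, -62 in Lss, -29 in Cyp51 and -216 in Insig1. Genes whose miR-27 Tg and WT libraries overlapped hold the box too, among them Pmvk, Insig2, Ebp and Srebf1. Any link between the box and the fold changes was not tested.
Mvk: ttaatgtttgacCCAATctgtaaaggagcc
Idi1: tgcctccagctgATTGGcgagcccgggcat
Lss: ggtgatgctctgATTGGccgagctcgcatc
Cyp51: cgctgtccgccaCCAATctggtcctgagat
Insig1: cgccctcctcccATTGGctccggcggcctc

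The comparison asked how these genes stood in Treg cells with excess miR-27. Sqle, the squalene epoxidase that performs the first oxygenation of the sterol branch, rose in miR-27 Tg libraries, and it was the 1 gene of 30 past the adjusted threshold. Most other enzymes of synthesis had higher means in miR-27 Tg libraries without passing, and Abca1, the exporter, had the lowest fold change of the 30. Levels are RPKM, reads per kilobase and per 10000000 counted reads. Fold changes are log2 differences of miR-27 Tg over WT on the log2(RPKM + 1) scale, with p-values by limma adjusted over the 13621 genes tested. The threshold was 0.05.

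By that threshold 1 of the 30 genes was higher and 0 were lower, where 0.374% of all genes tested were higher and 0.653% lower. At an unadjusted p under 0.05, 12 of the 30 were higher and 1 lower, against 4.59% and 8.43% of all genes. All 3 miR-27 Tg libraries lay above all 3 WT libraries for 13 of the 30, or 43.3%, and below for 1, against 6.84% and 11.6% of all genes. The remaining 16 overlapped. The median log2 fold change of the 30 was 0.26, with 24 above 0 and 6 below, while the median of all genes tested was -0.013 and 47.1% of them were above 0. The genes were listed with earlier results of these data known, so these shares are descriptions.

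**Figure D1:**
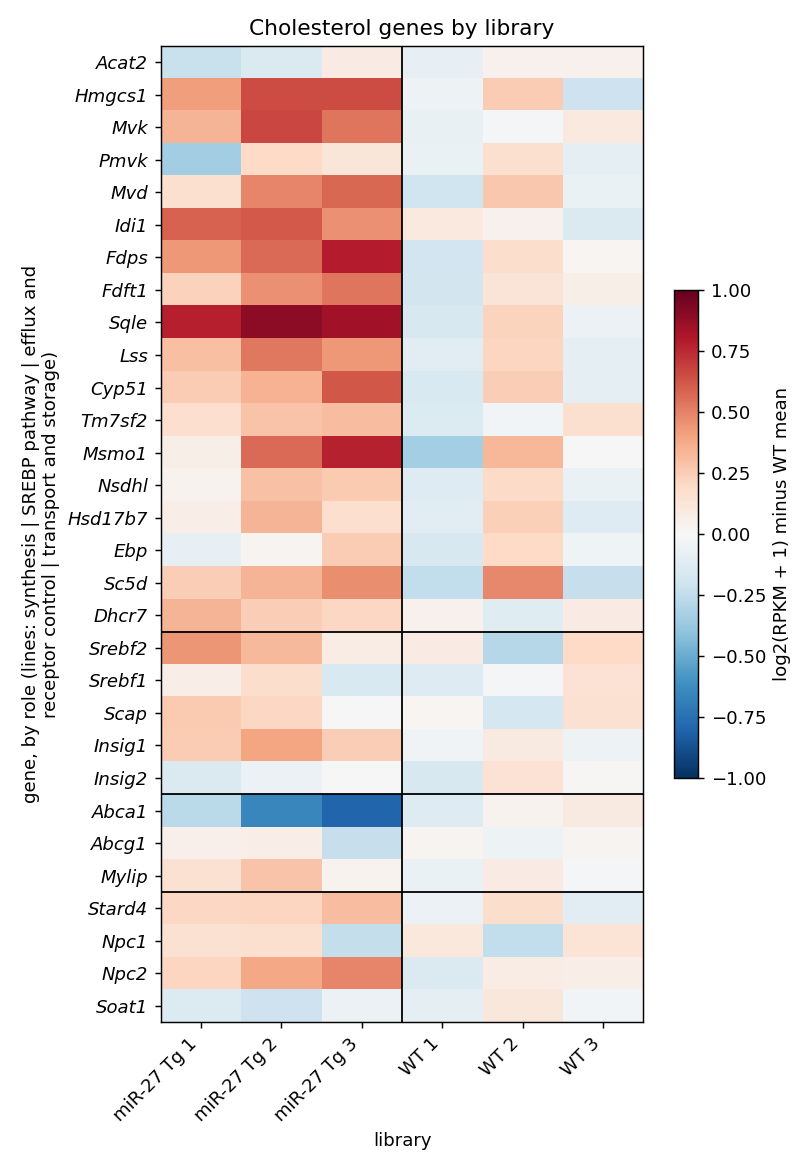
Level of each of the 30 genes in each library, as log2(RPKM + 1) minus the mean of the WT libraries (colour), with miR-27 Tg libraries left of WT libraries and genes grouped by role. Sqle is the reddest row in the miR-27 Tg libraries, Abca1 the bluest, and within WT the enzymes are mostly redder in replicate 2 than in replicates 1 and 3.

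**Figure D2:**
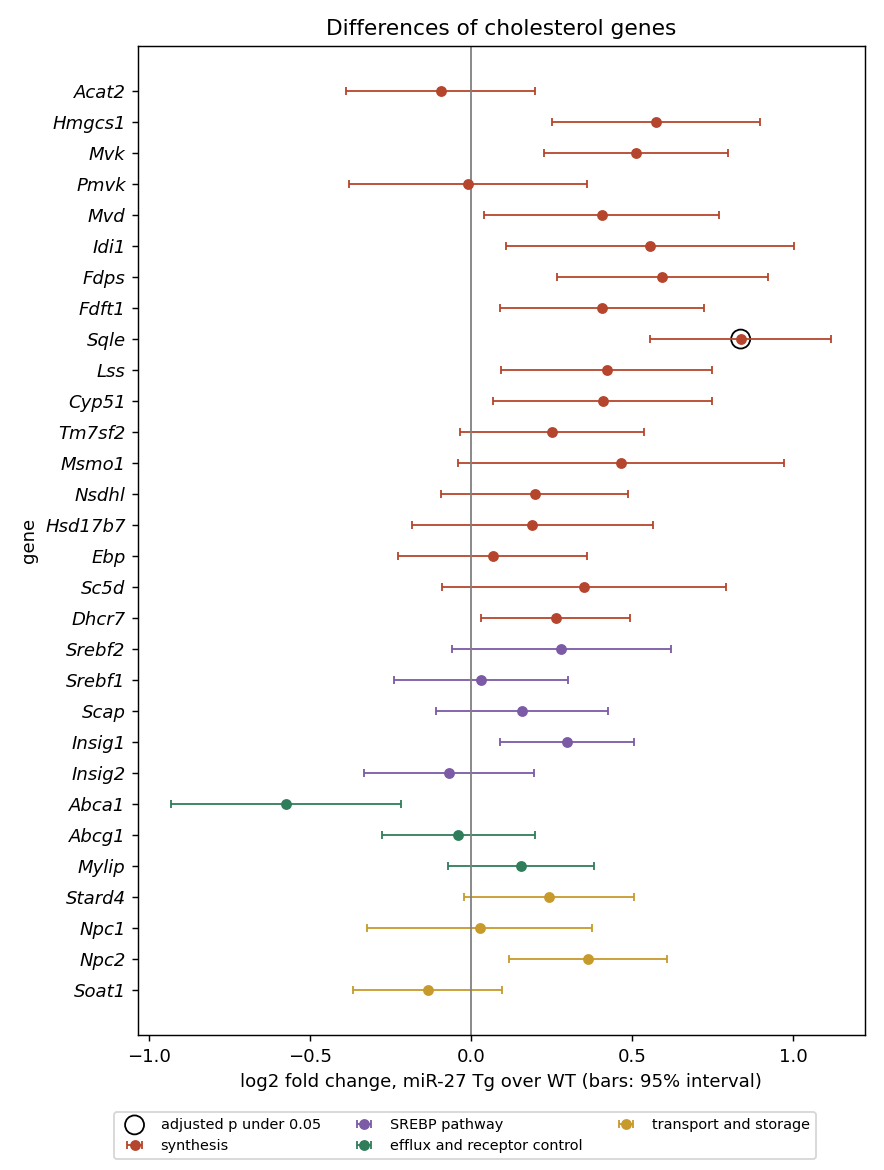
Log2 fold change of each gene, miR-27 Tg over WT, with 95% intervals from limma, coloured by role; the ring marks an adjusted p under 0.05. The interval of Sqle runs from 0.56 to 1.12, and that of Abca1 from -0.93 to -0.22.

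The synthesis chain opens with the steps that build farnesyl diphosphate from acetyl-CoA, the mevalonate pathway. Hmgcs1, which makes HMG-CoA, had 92.2, 109 and 109 RPKM in miR-27 Tg replicates 1 to 3, against 66.3, 82.2 and 59.5 RPKM in WT replicates 1 to 3. The groups did not overlap, with miR-27 Tg replicate 1 the lowest of its group and WT replicate 2 the highest of its own. The log2 fold change was 0.58 (SE 0.14, 95% interval 0.25 to 0.90, adjusted p = 0.123 by limma), and of the 18 alternatives it passed in 1, array weights (0.69, adjusted p = 0.0391). Reads were counted without regard to strand, and 12.1% of its exonic bases overlap the gene Gm48342.

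Mvk, the mevalonate kinase, had 52.9, 66.6 and 60.7 RPKM in miR-27 Tg libraries, against 39.4, 40.9 and 44.6 RPKM in WT libraries. These did not overlap (log2 fold change 0.51, SE 0.12, adjusted p = 0.12 by limma). Fdps, the farnesyl diphosphate synthase, had 55.2, 60.3 and 70.4 RPKM in miR-27 Tg libraries, against 35.3, 45.8 and 41.1 RPKM in WT libraries. Its groups also stood apart (0.59, SE 0.14, adjusted p = 0.118 by limma). The predicted gene Gm43738 shares 26.7% of the 4208 exonic bases of Fdps, taken over all its annotated transcripts. Overlap with the counted transcript of 1233 bases was not measured, so the part of shared reads in these values is not known.

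Idi1, the isomerase between the C5 building blocks, was the least abundant of the 30, at 5.79, 5.89 and 5.18 RPKM in miR-27 Tg libraries and 3.82, 3.64 and 3.06 RPKM in WT libraries. These values rest on 51 to 63 reads in miR-27 Tg libraries and 33 to 46 in WT libraries, whose counting error alone reaches 17.4% in the thinnest library. The groups did not overlap, and the log2 fold change was 0.56 (SE 0.19, 95% interval 0.11 to 1.002, adjusted p = 0.266 by limma).

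Mvd, the mevalonate diphosphate decarboxylase, had 89.6, 113 and 120 RPKM in miR-27 Tg libraries, against 69.7, 96.9 and 76.6 RPKM in WT libraries. WT replicate 2 lay above miR-27 Tg replicate 1, so the groups overlapped (0.41, SE 0.16, adjusted p = 0.32 by limma). The phosphomevalonate kinase Pmvk averaged 80.7 ± 15.8 RPKM in miR-27 Tg and 80.4 ± 8.04 RPKM in WT (SD, n = 3 each). Its log2 fold change of -0.01 had a 95% interval of -0.38 to 0.36, and its sign depended on the scaling: it was 0.02 with median ratio scaling.

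Acat2, the cytosolic thiolase, was the enzyme with the lowest fold change, at 34.9 ± 3.96 RPKM in miR-27 Tg and 37.2 ± 1.94 RPKM in WT (SD, n = 3 each; log2 fold change -0.09, 95% interval -0.39 to 0.20). Of these 7 enzymes 4, or 57.1%, had groups that did not overlap, each with miR-27 Tg above WT, against 6.84% of all genes tested. The 7 summed to 390.1, 480.1 and 492 RPKM in miR-27 Tg libraries, against 326, 398 and 338 RPKM in WT libraries, where WT replicate 2 exceeded miR-27 Tg replicate 1.

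The middle of the chain joins farnesyl units into squalene and closes the ring. Sqle (transcript NM_009270, chr15:59315092-59331193 of mm10, plus strand) had 94.9, 103 and 99.1 RPKM in miR-27 Tg replicates 1 to 3, against 49.0, 64.2 and 52.6 RPKM in WT replicates 1 to 3. Even the lowest miR-27 Tg library stood well above the highest WT library, and the ratio of the means was 1.79. The log2 fold change was 0.84 (SE 0.12, 95% interval 0.56 to 1.12, adjusted p = 0.0292 by limma, rank 61 of 13621 by p), from 933 to 988 reads in miR-27 Tg libraries and 542 to 691 in WT libraries.

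The call for Sqle held without WT replicate 2 (adjusted p = 0.0268) and was lost without any other 1 of the libraries (adjusted p = 0.0788 to 0.123), with log2 fold changes of 0.76 to 0.95 over these 6 fits. It was also lost with no filter on low values (adjusted p = 0.0558, the same fold change) and with the myeloid covariate described below.

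Fdft1, the squalene synthase, had 44.3, 51.9 and 54.8 RPKM in miR-27 Tg libraries, against 32.9, 41.2 and 39.2 RPKM in WT libraries. The groups did not overlap (log2 fold change 0.41, SE 0.14, adjusted p = 0.251 by limma). Fdft1 shares 18.3% of its exonic bases with Ctsb, a lysosomal protease whose log2 fold change was 0.09 (95% interval -0.29 to 0.46). Ctsb was far more abundant, at 360, 523 and 531 RPKM in miR-27 Tg libraries and 383, 457 and 475 RPKM in WT libraries. The part of Ctsb reads in the values of Fdft1 was not tested. Lss, which folds squalene epoxide into lanosterol, had 32.0, 37.6 and 35.1 RPKM in miR-27 Tg libraries, against 23.7, 29.996 and 24.0 RPKM in WT libraries, without overlap (0.42, SE 0.14, adjusted p = 0.25 by limma). Thus all 3 genes of these middle steps had miR-27 Tg libraries above WT libraries, with ratios of the means from 1.33 to 1.79. Of all genes tested 6.84% had miR-27 Tg libraries above WT libraries in this way.

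**Figure D3:**
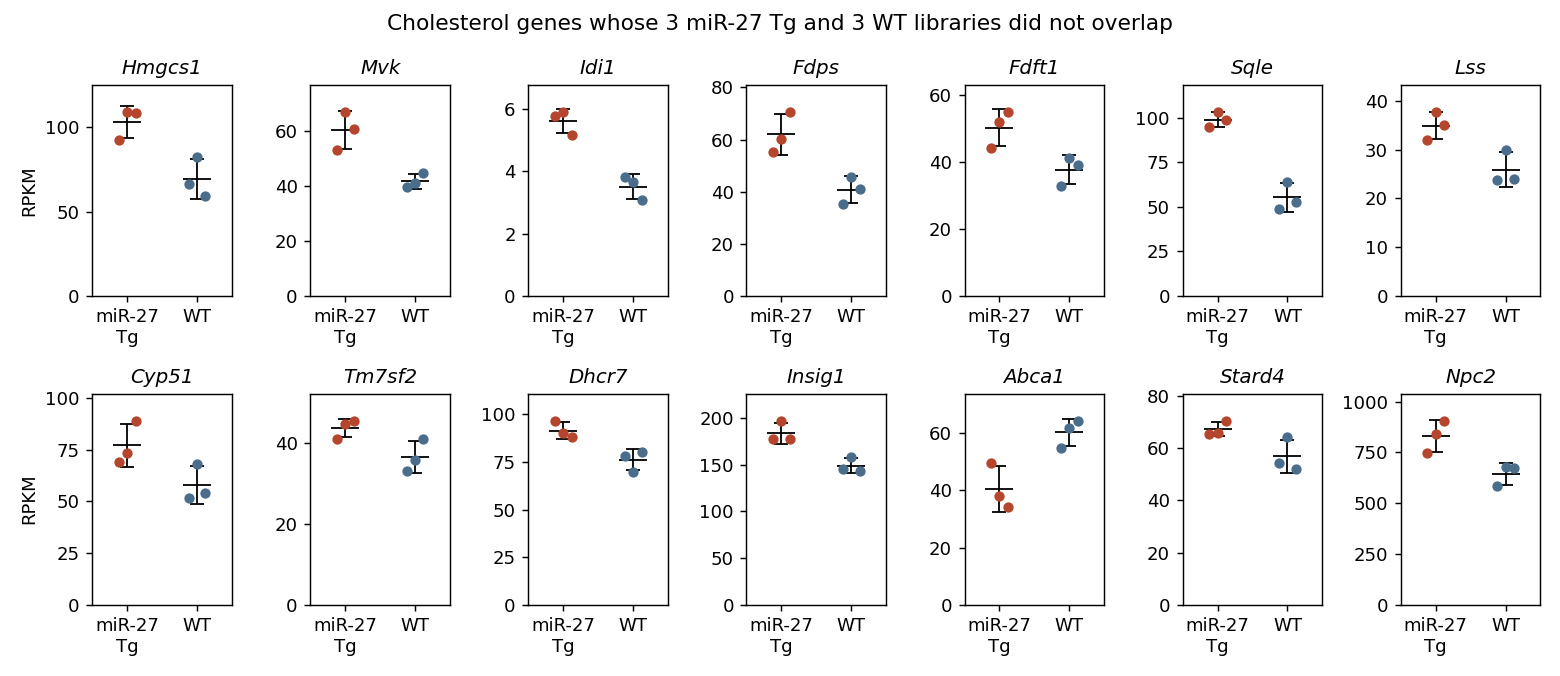
RPKM of the 14 genes whose groups did not overlap, 1 panel each, with 1 point per library and the mean and SD in black; axes start at 0. For 13 genes the miR-27 Tg points lie above the WT points, by the widest relative margin in Sqle, and for Abca1 they lie below.

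The late steps trim lanosterol to cholesterol. Cyp51, the lanosterol demethylase, had 69.0, 73.6 and 88.9 RPKM in miR-27 Tg libraries, against 51.7, 68.4 and 53.9 RPKM in WT libraries. The lowest miR-27 Tg library exceeded the highest WT library by less than 1 RPKM (log2 fold change 0.41, SE 0.15, adjusted p = 0.285 by limma). Dhcr7, the last reductase, had 96.4, 90.3 and 87.9 RPKM in miR-27 Tg libraries, against 78.2, 70.0 and 80.4 RPKM in WT libraries, without overlap (0.26, SE 0.10, adjusted p = 0.31 by limma). Here the order within groups differed from the other enzymes, with miR-27 Tg replicate 1 the highest of its group and WT replicate 2 the lowest of its own.

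Tm7sf2, a sterol C14 reductase, was the remaining late enzyme without overlap, at 41.2, 44.7 and 45.5 RPKM in miR-27 Tg libraries and 33.2, 35.9 and 41.1 RPKM in WT libraries (0.25, SE 0.12, adjusted p = 0.454 by limma). Its neighbour Vps51 shares 12.1% of its exonic bases. The demethylase component Msmo1 varied most among the miR-27 Tg libraries, at 74.8, 107 and 123 RPKM, against 56.4, 90.6 and 71.9 RPKM in WT libraries. Its log2 fold change of 0.47 had an interval of -0.04 to 0.97.

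Sc5d, the sterol desaturase, varied most among WT libraries, at 146, 155 and 169 RPKM in miR-27 Tg libraries and 103, 171 and 104 RPKM in WT libraries. WT replicate 2 was the highest of all 6, and the log2 fold change was 0.35 (interval -0.09 to 0.79). Nsdhl, Hsd17b7 and Ebp, which complete the demethylation, the ketone reduction and the double bond shift, overlapped too. Their log2 fold changes were 0.20 for Nsdhl (interval -0.09 to 0.49), 0.19 for Hsd17b7 (-0.18 to 0.57) and 0.07 for Ebp (-0.23 to 0.36). Of the 8 late enzymes 3, or 37.5%, did not overlap, each with miR-27 Tg above WT, against 6.84% of all genes tested. The median log2 fold change was 0.26 for these 8, against 0.42 for the 3 middle enzymes and 0.51 for the 7 early ones. The difference between these stages was not tested.

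**Figure D4:**
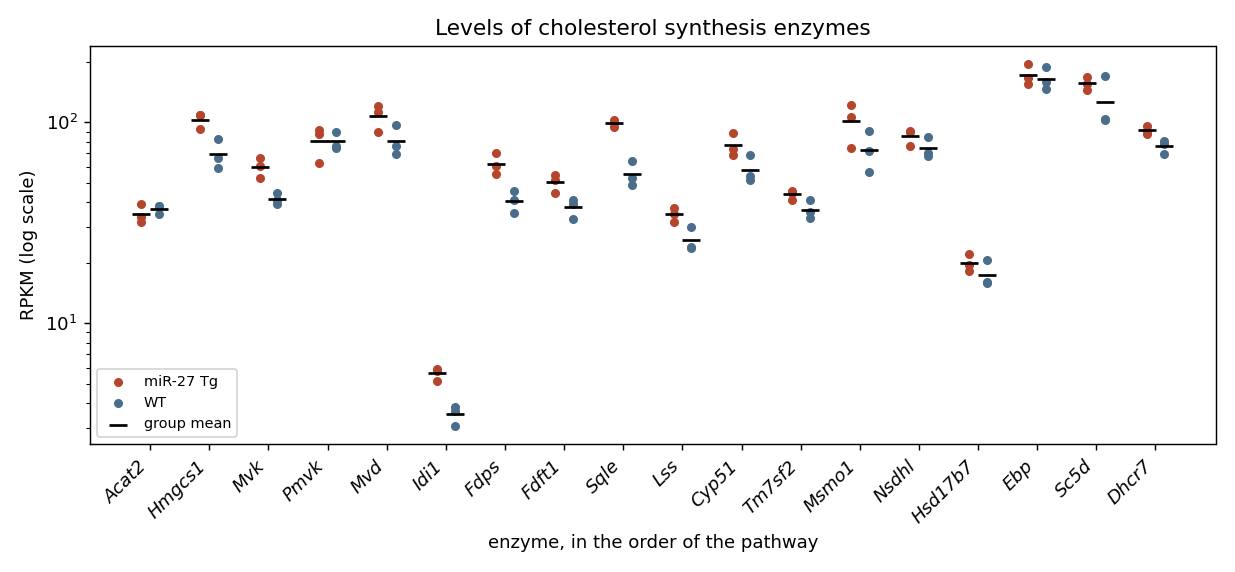
RPKM on a log scale of the 18 enzymes in the order of the pathway, with 1 point per library, miR-27 Tg left of WT, and group means as dashes. Levels run from Idi1, at 5.62 and 3.51 RPKM on average in miR-27 Tg and WT, to Ebp, at 172 and 164 RPKM.

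The levels of the enzymes differed far more between steps than between genotypes. In WT libraries Ebp at 164 ± 21.1 RPKM and Sc5d at 126 ± 38.8 RPKM were the most abundant, and their spreads overlapped. Mvd, Pmvk, Dhcr7, Nsdhl, Msmo1 and Hmgcs1 followed between 69.3 and 81.1 RPKM, neighbours that did not differ beyond their SDs. The low end was Lss at 25.9 ± 3.55 RPKM, Hsd17b7 at 17.4 ± 2.75 RPKM and Idi1 at 3.51 ± 0.398 RPKM (SD, n = 3), whose ranges in WT libraries did not overlap.

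The enzymes also moved together between libraries of 1 genotype. WT replicate 2 was the highest WT library for 14 of the 18 enzymes, or 77.8%, where it was the highest for 47.4% of all genes tested. The lowest miR-27 Tg library was replicate 1 for 16 of the 18, or 88.9%, against 50.3% of all genes. The 18 enzymes summed to 1237, 1424 and 1499 RPKM in miR-27 Tg replicates 1 to 3 and to 985, 1262 and 1051 RPKM in WT replicates 1 to 3. So the sum in WT replicate 2 exceeded that in miR-27 Tg replicate 1, although the group means of 1386 ± 135 RPKM in miR-27 Tg and 1099 ± 145 RPKM in WT lay apart (SD, n = 3 each).

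The SREBP pathway itself gave smaller differences. Insig1, a sterol-sensing brake on Scap and itself a target of SREBP, had 178, 197 and 177 RPKM in miR-27 Tg libraries, against 145, 158 and 144 RPKM in WT libraries. The groups did not overlap and the log2 fold change was 0.30 (SE 0.09, interval 0.09 to 0.51, adjusted p = 0.204 by limma). Its paralogue Insig2 averaged 61.4 ± 3.09 RPKM in miR-27 Tg and 64.7 ± 6.77 RPKM in WT (SD, n = 3 each), with a log2 fold change of -0.07 (interval -0.33 to 0.19).

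Srebf2, which encodes SREBP-2, had 507, 467 and 394 RPKM in miR-27 Tg libraries, against 396, 307 and 428 RPKM in WT libraries. Here WT replicate 2, the highest WT library for most enzymes, was the lowest, and the groups overlapped (log2 fold change 0.28, SE 0.15, adjusted p = 0.489 by limma). Srebf1, whose products act mainly on fatty acid genes, averaged 187 ± 21.4 RPKM in miR-27 Tg and 183 ± 17.7 RPKM in WT (SD, n = 3 each). Scap averaged 194 ± 18.2 RPKM in miR-27 Tg and 174 ± 19.6 RPKM in WT (SD, n = 3 each), and the gene 5830462I19Rik shares 13.2% of its exonic bases. The log2 fold changes were 0.03 for Srebf1 (interval -0.24 to 0.30) and 0.16 for Scap (-0.11 to 0.43). In every library Srebf2 stood above Srebf1 by RPKM.

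Among the genes of export, Abca1, which loads cholesterol onto apolipoprotein A-I (transcript NM_013454, chr4:53030789-53159895 of mm10, minus strand), had 49.7, 37.9 and 34.3 RPKM in miR-27 Tg replicates 1 to 3, against 55.0, 61.8 and 64.3 RPKM in WT replicates 1 to 3. The groups did not overlap, with all miR-27 Tg libraries below all WT libraries. Its log2 fold change was -0.57 (SE 0.16, interval -0.93 to -0.22, adjusted p = 0.155 by limma), so it did not pass, and adjusted p was 0.101 to 0.36 when each library was left out in turn. Abca1 carries 1 of the seed matches printed above, and the part of that match in its level was not tested.

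Abcg1, the partner exporter towards HDL and likewise an LXR target, stood at 195, 197 and 161 RPKM in miR-27 Tg libraries and at 192, 182 and 192 RPKM in WT libraries. These groups overlapped, with a log2 fold change of -0.04 (SE 0.10, interval -0.28 to 0.20). Mylip, the LXR-induced ubiquitin ligase that degrades lipoprotein receptors, averaged 174 ± 15.3 RPKM in miR-27 Tg and 156 ± 8.49 RPKM in WT (SD, n = 3 each; log2 fold change 0.15, interval -0.07 to 0.38). The 3 genes therefore did not share a direction.

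Of the genes of transport and storage, Npc2, the soluble lysosomal protein that hands cholesterol to Npc1, was the most abundant of the 30. It had 746, 841 and 904 RPKM in miR-27 Tg libraries, against 583, 678 and 675 RPKM in WT libraries, without overlap (log2 fold change 0.36, SE 0.11, interval 0.12 to 0.61, adjusted p = 0.19 by limma). Npc2 holds a seed match, as do Abca1, Sc5d and Npc1. Their log2 fold changes were 0.36 for Npc2, -0.57 for Abca1, 0.35 for Sc5d and 0.03 for Npc1. The part of the matches in these levels was not tested.

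Stard4, which carries sterol between membranes, had 65.5, 65.9 and 70.4 RPKM in miR-27 Tg libraries, against 54.3, 64.2 and 52.2 RPKM in WT libraries, without overlap (0.24, SE 0.11, adjusted p = 0.431 by limma). Npc1, the membrane protein of lysosomal export, averaged 104 ± 15.8 RPKM in miR-27 Tg and 102 ± 14.4 RPKM in WT (SD, n = 3 each; 0.03, interval -0.32 to 0.38). Soat1, which esterifies cholesterol for storage, averaged 79.8 ± 3.99 RPKM in miR-27 Tg and 87.8 ± 6.44 RPKM in WT (SD, n = 3 each; -0.13, interval -0.37 to 0.10). Of these 4 genes 2, or 50%, had groups that did not overlap, each with miR-27 Tg above WT, against 6.84% of all genes tested.

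Other genes of the pathway were counted over whole lists, and of each list those past the threshold are named, or else the one with the largest fold change. Stard5, a START-domain protein that binds sterols, was the 1 gene of 22 tested for uptake, transport and storage that passed. It was higher, and 0 passed as lower, where 0.374% of all genes tested were higher and 0.653% lower. At an unadjusted p under 0.05 by limma, 4 of the 22 were higher and 1 lower, against 4.59% and 8.43% of all genes. Stard5 had 106, 101 and 100.6 RPKM in miR-27 Tg libraries, against 64.7, 73.5 and 71.8 RPKM in WT libraries, without overlap. The log2 fold change was 0.55 (SE 0.10, adjusted p = 0.0471 by limma). That call was lost without any 1 of the 6 libraries (adjusted p = 0.0848 to 0.147), with no filter (0.0719), with no trend (0.0712), with a replicate block (0.053) and with the myeloid covariate (0.625). The log2 fold change itself was 0.49 to 0.58 with each library left out, 0.55 with no filter, no trend or the block, and 0.61 with the covariate.

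In the remaining lists 0 genes passed in either direction by limma. These were 11 genes of the isoprenoid branch (unadjusted p under 0.05 for 0), 12 of SREBP processing and sterol-regulated turnover (0), 11 of oxysterols and LXR (2 higher) and 4 electron donors of sterol oxidation (0). Of all genes tested 4.59% were higher and 8.43% lower at that unadjusted p. In each of these 4 lists the gene with the largest fold change had overlapping groups. Pggt1b, a subunit of a prenyltransferase, averaged 55.4 ± 6.84 RPKM in miR-27 Tg and 66.6 ± 12.5 RPKM in WT (SD, n = 3 each; log2 fold change -0.25). Tmem97, a sterol-regulated membrane protein, averaged 18.4 ± 3.94 RPKM in miR-27 Tg and 13.3 ± 2.74 RPKM in WT (SD, n = 3 each; 0.44). Cyp27a1, the sterol 27-hydroxylase, had 3.27, 21.6 and 8.30 RPKM in miR-27 Tg libraries, against 1.61, 4.49 and 8.69 RPKM in WT libraries (0.90), a fold change that turned to -1.10 with the myeloid covariate. The 2 genes of oxysterols and LXR with an unadjusted p under 0.05, named after their values were seen, did not overlap. Hsd3b7, a hydroxysteroid dehydrogenase of bile acid synthesis, had 28.5, 27.03 and 35.8 RPKM in miR-27 Tg libraries, against 17.1, 16.2 and 19.7 RPKM in WT libraries (0.74, interval 0.38 to 1.11, adjusted p = 0.0858 by limma). Arl4c, a small GTPase and LXR target, had 579, 607 and 533 RPKM in miR-27 Tg libraries, against 431, 529 and 478 RPKM in WT libraries (0.26, interval 0.02 to 0.50, adjusted p = 0.328 by limma). Cyb5r3, which passes electrons to the sterol oxidases through cytochrome b5, averaged 128 ± 15.1 RPKM in miR-27 Tg and 153 ± 29.9 RPKM in WT (SD, n = 3 each; -0.24).

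Markers of myeloid cells, which the sort is meant to leave out and which also use these genes, stood higher in miR-27 Tg libraries. The 16 markers summed to 823, 2359.5 and 1603 RPKM in miR-27 Tg replicates 1 to 3 and to 671, 738 and 1192 RPKM in WT replicates 1 to 3. Of the 15 tested 14, or 93.3%, had a fold change above 0, against 47.1% of all genes tested. By the adjusted threshold 1, Itgam, passed (log2 fold change 1.69, adjusted p = 0.0118 by limma), where 0.374% of all genes were higher. At an unadjusted p under 0.05 by limma 10 were higher (66.7%) and 0 lower, against 4.59% and 8.43% of all genes. For 5 of the 16 all 3 miR-27 Tg libraries lay above all 3 WT libraries, against 6.84% of all genes tested. The 1 zero was Cd14 in miR-27 Tg replicate 1. The mean log2(RPKM + 1) of the 15 was 4.78, 6.05 and 5.46 in miR-27 Tg replicates 1 to 3 and 4.21, 3.82 and 4.63 in WT replicates 1 to 3, so the groups did not overlap and the level cannot be separated well from genotype.

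With that level as a covariate in limma, the log2 fold change of Sqle was 0.88 (SE 0.24, adjusted p = 0.464), that of Hmgcs1 0.61 and that of Fdps 0.56, close to the values without it. The fold changes of Mvk, Npc2 and Msmo1 were 0.24, 0.24 and 0.24, against 0.51, 0.36 and 0.47 without the covariate, and that of Abca1 was -0.33 against -0.57. The median of the 30 was 0.20 with the covariate and 0.26 without it, and 22 of 30 were above 0 with it. WT replicate 2, the highest WT library for most synthesis enzymes, had the lowest mean log2(RPKM + 1) of the markers among WT libraries. MiR-27 Tg replicate 1, the lowest of its group for most of these enzymes, also had the lowest marker mean of its group. By the summed markers the lowest WT library was replicate 1 (671 RPKM), not replicate 2 (738 RPKM). The part of other cells in these values was not tested further.

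**Figure D5:**
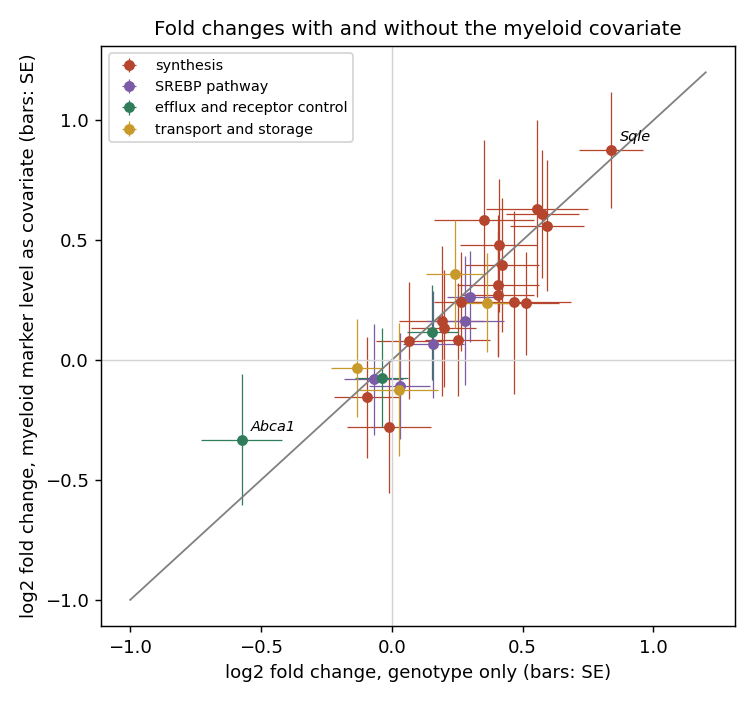
Log2 fold change of each of the 30 genes with the myeloid marker level as a covariate (vertical axis) against genotype alone (horizontal axis), with SEs as bars and a line of equality. Sqle lies near the line at 0.84 and 0.88 with a wider error in the covariate fit, and Abca1 moves towards 0.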

How the data were processed

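The authors deposited 1 table of RPKM values for 34711 transcripts in 6 libraries. Per the file headers, HOMER counted exon reads on both strands of mm10 transcripts and scaled each library to 10000000 counted reads. Alignment with STAR 2.2.0c is recorded per the submitters' processing notes, which give the build as mm10 or GRCm38. The handling of reads that map to more than 1 place was not stated.

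Low values were whole multiples (100% within 0.1 of a read, transcripts of 200 to 4000 bases) of the value of 1 read, which gave depths and read numbers. RPKM is not a count, so no count model was used.

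For each symbol the transcript with the highest mean RPKM was kept. The 13621 genes with a mean of at least 1 were compared on log2(RPKM + 1), using limma 3.58.1 (R 4.3.3, intensity trend, two-sided, Benjamini-Hochberg adjustment over all genes tested, threshold 0.05). The pseudocount understates changes of low genes. The fit was tested on simulated data. Exon overlap came from GENCODE M21, as a share of the exonic bases of all annotated transcripts of a gene, not of the counted transcript. In all, 18 alternatives were run.

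The genes, lists and naming rule (all 30 genes, and of each other pathway list those past the threshold or else the largest fold change) were chosen with earlier results of these data known.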

Additional observations from a re-analysis of the deposited data

How the results depend on the processing

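The count of cholesterol genes that were higher, 1 in the reported fit, was 0 with no filter, 2 with array weights (Sqle and Hmgcs1), 0 with the myeloid covariate and 0 to 1 when each library was left out in turn. Over all genes, 51 were higher and 89 lower as reported. These counts were 15 and 32 with no filter, 81 and 144 with array weights, 91 and 185 with a replicate block, and 1 and 0 with the myeloid covariate. Leaving out transcripts of under 200 bases gave 137 lower genes, and leaving out each library in turn gave 3 to 14 higher and 1 to 44 lower. With fewer libraries each fit has fewer degrees of freedom.

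The sign of some fold changes turned, and the cause was not tested. Pmvk was at 0.0231 with median ratio scaling, 0.0176 with quantile normalization and 0.11 with array weights, and at -0.11 to 0.16 when each library was left out. With the myeloid covariate Srebf1 was at -0.11, Npc1 at -0.12 and Cyp27a1, at 0.90 without it, at -1.10. With each library left out Ebp ran from -0.0261 to 0.166, Srebf1 from -0.043 to 0.122, Insig2 from -0.148 to 0.00138, Abcg1 from -0.0911 to 0.0563 and Npc1 from -0.0946 to 0.158. In none of the 18 alternatives did Sqle, Hmgcs1, Abca1 or Npc2 change sign.

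Whether equal replicate numbers mark paired samples is not stated by the labels and was not settled here. Deviations from the group means correlated at 0.368, 0.0971 and 0.0368 across genes for numbers 1, 2 and 3. For unequal numbers the correlations ran from -0.222 to 0.154, and replicate 2 of miR-27 Tg correlated more with WT replicate 3 (0.119) than with WT replicate 2. With the replicate block Sqle had an adjusted p of 0.0203. Depth limits Idi1 most among the 30 genes.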
